A study of Mus musculus with 8 samples.

Results

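Myeloid lineage transcription factors are the DNA-binding proteins that steer blood progenitors towards granulocytes, monocytes and their relatives. The 10 described here are Gfi1, Gfi1b, Cebpa, Cebpb, Cebpe, Spi1, Irf8, Klf4, Runx1 and Myb. They were chosen by name, with earlier results of these data known. Each was read by a single probe set carrying that gene symbol alone. So 10 of 10 were found among 19938 gene symbols, read by 21789 probe sets with 1 symbol each. The values are array intensities, analysed as log2(intensity + 1), and every difference below is on that log2 scale.

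The study hybridised total RNA of C57BL/6 mouse cells to 8 Affymetrix arrays, in 4 groups of 2 numbered 1 and 2. The groups carried an empty vector, NUP98-HOXA9, or its deletion mutant delFG1 or delFG2. The fusion, found in leukaemia, joins the FG-repeat part of a nuclear pore protein to the DNA-binding part of a homeobox factor. The study's design asks which genes depend on the NUP98 part. The kind of cell, the time after transfer of the vector and the residues that each deletion removes are not stated in the labels.

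In blood formation PU.1 (encoded by Spi1) and C/EBP alpha (Cebpa) commit progenitors to the myeloid lineage, and RUNX1 acts before them in stem cells. GFI1 and C/EBP epsilon (Cebpe) then drive granulocyte development, whereas IRF8 and KLF4 drive monocyte development. GFI1 is a repressor that opposes PU.1 and monocyte genes, GFI1B is its paralog in erythroid cells and megakaryocytes, and MYB keeps progenitors dividing and immature. C/EBP beta (Cebpb) takes over granulocyte production in emergencies and is needed in macrophages.

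Median intensity lay between 80.7 and 83.2 on all arrays, and arrays of a group correlated with r from 0.995 to 0.996 across probe sets. Arrays of different groups correlated with r from 0.989 to 0.999, so some of them were more alike than the arrays of any group. Differences were tested with limma over all probe sets with 1 symbol, once without and once with the array number as a term of the model, called the replicate block below. The labels do not say whether a group's arrays came from separate cultures, and the p-values therefore cover the spread among these 8 arrays alone, which may be technical. The fit without the block was the planned main one, and the fit with it was an alternative. Without the block 0 of the 10 factors passed an adjusted p of 0.05 in any of the 6 comparisons. Every call below is from the alternative fit, with the block, unless stated otherwise. Comparisons with the same group share its 2 arrays, so the 3 differences from the empty vector are not independent of each other.

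**Figure D1:**
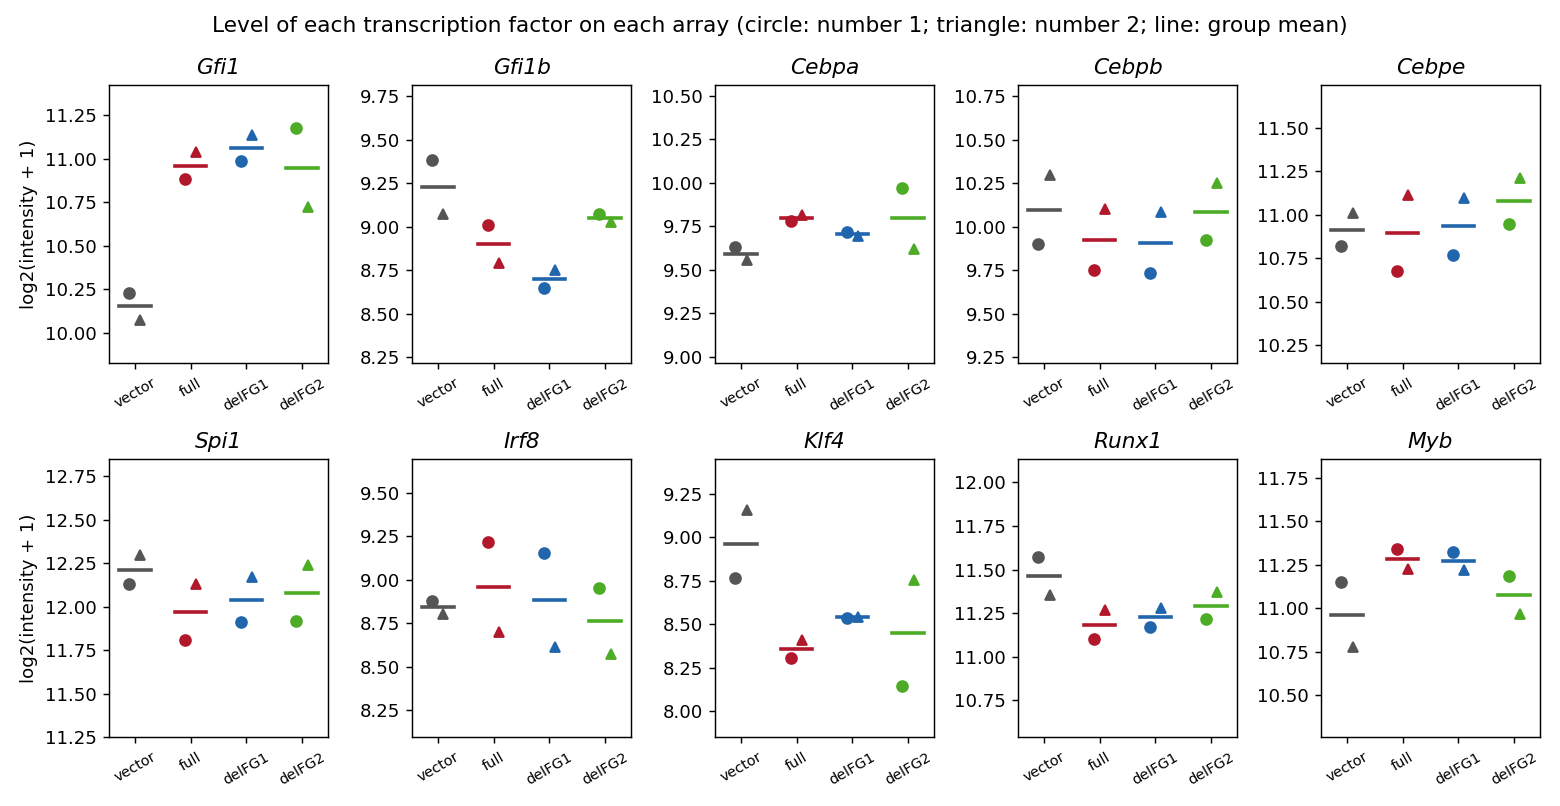
Log2(intensity + 1) of each factor on each of the 8 arrays, by group, with circles for arrays numbered 1, triangles for arrays numbered 2 and a line at the group mean. All panels span the same range. Gfi1 stands higher on the 6 fusion arrays than on either empty vector array, Klf4 stands lower on them, and Cebpb, Cebpe and Spi1 have the triangle above the circle in every group.

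Gfi1, a zinc finger repressor needed for granulocytes and for restraint of stem cells, was the factor that differed most between groups. Its intensity was 1200.2 and 1075 with the empty vector, 1887 and 2100.3 with the full-length fusion, 2029.9 and 2244 with delFG1, and 2311 and 1687 with delFG2. All 6 arrays with a form of the fusion lay above both empty vector arrays. Mean log2 levels were 10.15 ± 0.11 (SD, n = 2) with the vector, 10.96 ± 0.11 with the full-length fusion, 11.06 ± 0.10 with delFG1 and 10.95 ± 0.32 with delFG2.

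With the full-length fusion Gfi1 was higher by 0.81 ± 0.15 (SE), a 1.75-fold difference, with a limma adjusted p of 0.113. With the block the SE was 0.12 and the adjusted p 0.00313. By number, it was 0.65 for arrays 1 and 0.97 for arrays 2. Without the full-length array numbered 2 the call with the block was lost, at 0.65 and an adjusted p of 0.0946.

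With delFG1 Gfi1 was higher than with the vector by 0.91, or 1.88-fold, with an adjusted p of 0.0806 without the block and 0.00137 with it. That call held in each of the 13 fits with the block, over adjusted p up to 0.0131. With delFG2 the difference was 0.80, or 1.74-fold, with an adjusted p of 0.87 and, with the block, 0.0307. The delFG2 call rested on single arrays. It was lost without delFG2 number 1 (0.55, adjusted p 0.396), without either full-length array (0.80, adjusted p 0.0806 without number 1 and 0.0794 without number 2), without empty vector number 1 (0.85, adjusted p 0.0501) and without an intensity trend (0.80, adjusted p 0.104). By size of the difference Gfi1 ranked 212 of 21789 with the full-length fusion, 172 with delFG1 and 37 with delFG2.

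Neither deletion lowered Gfi1 detectably. Against the full-length fusion the difference was 0.10 with delFG1 and -0.01 with delFG2, and the adjusted p was 1 for both by limma without the block. The 95% interval with the block ran from -0.17 to 0.37 for delFG1 and from -0.29 to 0.26 for delFG2. Without the block it ran from -0.24 to 0.44 and from -0.35 to 0.32. The 2 delFG2 arrays lay on either side of the full-length ones, so the mutants' levels cannot be ordered beyond their spread.

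Gfi1b, the paralog, went the other way, and its lowest mean was with delFG1. Its intensity was 667 and 539 with the empty vector, 514 and 442 with the full-length fusion, 399.7 and 431 with delFG1, and 538 and 521 with delFG2. The 2 delFG1 arrays were the lowest of the 8, and no array with a form of the fusion reached the lower vector array, although delFG2 number 1 came within 1 intensity unit of it. With delFG1 Gfi1b fell by 0.53 (adjusted p 0.225, and 0.0132 with the block), a level 1.44-fold below the vector. The delFG1 call was lost without delFG1 number 1 (-0.38, adjusted p 0.307) or without empty vector number 1 (-0.40, adjusted p 0.0842).

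The full-length fusion gave -0.33 for Gfi1b (block adjusted p 0.103) and delFG2 gave -0.18 (0.616), and neither passed. Without the empty vector array numbered 2 the full-length difference became -0.46 with a block adjusted p of 0.0228. Between the mutants Gfi1b was higher with delFG2 by 0.35. The 95% interval ran from 0.05 to 0.66 without the block and from 0.12 to 0.59 with it. The difference missed the threshold in both limma fits (adjusted p of 1, and 0.296 with the block).

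GFI1 and GFI1B recognise DNA with an AATC core, and both are known to bind upstream of their own and each other's genes. The bases before the annotated starts of Gfi1 and Gfi1b are therefore shown, from RefSeq on build GRCm38.p6, 5′ to 3′ on the gene's strand, with AATC or its reverse complement GATT in capitals. The first Gfi1 start has chr5:107725806-107726055 before it, the second chr5:107724344-107724593, and Gfi1b has chr2:28621983-28622232, all on the minus strand.
Gfi1, first start: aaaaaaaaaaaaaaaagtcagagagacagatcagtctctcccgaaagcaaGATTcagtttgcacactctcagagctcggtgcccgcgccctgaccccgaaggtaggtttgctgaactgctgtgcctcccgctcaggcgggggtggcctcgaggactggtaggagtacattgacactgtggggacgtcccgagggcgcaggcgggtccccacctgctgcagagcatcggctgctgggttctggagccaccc
Gfi1, second start: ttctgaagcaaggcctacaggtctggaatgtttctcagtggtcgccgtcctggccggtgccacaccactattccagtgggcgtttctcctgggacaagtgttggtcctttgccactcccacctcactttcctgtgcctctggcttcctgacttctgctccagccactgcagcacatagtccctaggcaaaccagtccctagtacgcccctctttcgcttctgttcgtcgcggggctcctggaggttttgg
Gfi1b: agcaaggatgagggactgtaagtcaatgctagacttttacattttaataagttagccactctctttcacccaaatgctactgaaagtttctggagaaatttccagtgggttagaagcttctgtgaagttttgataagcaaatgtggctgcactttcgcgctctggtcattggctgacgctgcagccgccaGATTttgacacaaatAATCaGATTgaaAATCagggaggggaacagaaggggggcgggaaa

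The Gfi1b window of 250 bases holds 4 matches, whose first bases lie 60, 45, 40 and 33 bases before the start. The first Gfi1 window holds 1, at 200 bases, and the second holds 0. Of 32851 such windows in the RefSeq table, 69% held at least 1 match and 7.04% held 4 or more. A match to 4 letters is a description of the sequence and not a binding site.

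Starts were listed for 8 of the 10 factors, 11 windows in all, and Spi1 and Cebpe were not among them. In these windows, on both strands, AATC matched in 7 (69% of all windows), the MYB motif AACNG in 6 (74.2%), the C/EBP motif TTNNGNAA in 1 (36.8%) and the PU.1 motif GAGGAA in 1 (23.3%). The HOX and PBX motif TGATTNAT and the RUNX motif TGTGGT matched in 0, against 2.82% and 14% of all windows. TGATTNAT contains the reverse complement of AATC, so the matches of these motifs can overlap.

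Klf4, a zinc finger activator of monocyte genes, was lower wherever a form of the fusion was present. Its intensity was 433 and 569 with the empty vector, 315 and 338.5 with the full-length fusion, 370.1 and 372 with delFG1, and 282 and 431 with delFG2. Every fusion array lay below the lower vector array, with delFG2 number 2 just below it. With the full-length fusion Klf4 fell by 0.60 ± 0.20 (SE), to a level 1.52-fold lower, with an adjusted p of 0.382 and, with the block, 0.0221.

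The Klf4 call did not hold in all fits. With the block it was lost without full-length number 1 (-0.72, adjusted p 0.107), without full-length number 2 (-0.49, 0.256), without empty vector number 2 (-0.53, 0.0588), after quantile normalisation (-0.59, 0.0517) and without an intensity trend (-0.60, 0.0517). The differences from the vector were -0.42 with delFG1 (block adjusted p 0.108) and -0.51 with delFG2 (0.144), and neither passed. Against the full-length fusion they were 0.18 and 0.10, with 95% intervals with the block from -0.11 to 0.48 and from -0.20 to 0.39.

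Irf8, the interferon regulatory factor that drives monocytes and dendritic cells, showed no difference between groups that exceeded its spread. Its intensity was 468 and 446 with the empty vector, 593 and 415 with the full-length fusion, 569 and 391 with delFG1, and 494 and 381 with delFG2. In each form of the fusion the array numbered 1 lay above both vector arrays and the array numbered 2 below both. The difference of full-length fusion from vector was 0.34 for number 1 and -0.11 for number 2, with a mean of 0.12 (adjusted p 0.922, and 0.698 with the block).

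Spi1 encodes PU.1, the ETS factor at the head of the myeloid programme, and was slightly lower with the full-length fusion. Its intensity was 4486 and 5021 with the empty vector, 3579.9 and 4484 with the full-length fusion, 3844.5 and 4609.5 with delFG1, and 3863 and 4843 with delFG2. The upper full-length array, number 2, lay just under the lower vector array, and the mutants' arrays overlapped with the vector's. Spi1 fell by 0.24 with the full-length fusion (adjusted p 0.671, and 0.0258 with the block), a 1.18-fold difference.

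With delFG1 Spi1 differed from the vector by -0.17 (block adjusted p 0.114) and with delFG2 by -0.13 (0.413). The full-length call was lost in the fits with the block without full-length number 1 (-0.21, adjusted p 0.258), full-length number 2 (-0.28, 0.12), empty vector number 1 (-0.17, 0.102) or either delFG1 array (-0.24, 0.0514 and 0.0522), and without an intensity trend (-0.24, 0.107). Without the empty vector array numbered 2, delFG1 (-0.24, 0.0112) and delFG2 (-0.20, 0.0482) passed as well.

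The C/EBP factors did not pass in any comparison. Cebpa, which opens granulocyte development, had intensities of 791 and 752 with the empty vector, 880.35 and 899 with the full-length fusion, 841 and 829 with delFG1, and 1001 and 787 with delFG2. The full-length and delFG1 arrays lay above both vector arrays, by a mean of 0.21 (block adjusted p 0.284) and 0.11 (0.612), while delFG2 overlapped with the vector.

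Cebpe, the factor of late granulocyte maturation and secondary granule genes, had group means that spanned 0.18. Its intensity was 1806 and 2065 with the vector, 1639 and 2214.5 with the full-length fusion, 1743.5 and 2192.5 with delFG1, and 1972 and 2375 with delFG2. The vector's values lay between those of the full-length fusion, and the difference was -0.02, with a 95% interval with the block from -0.17 to 0.13. With delFG2 it was higher by 0.18 than with the full-length fusion (95% interval with the block 0.03 to 0.34, block adjusted p 0.465) and by 0.16 than with the vector (0.01 to 0.32, 0.422), and neither passed. Cebpb had 954 and 1257 with the vector, 860.2 and 1098 with the full-length fusion, 849.8 and 1083 with delFG1, and 969 and 1216 with delFG2. The groups overlapped, with differences from the vector of -0.17 (block adjusted p 0.208), -0.19 (0.166) and -0.01 (0.982).

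Runx1, a core-binding factor subunit of stem and progenitor cells, was highest with the empty vector. Its intensity was 3046 and 2619 there, 2195 and 2460.1 with the full-length fusion, 2306 and 2488 with delFG1, and 2376 and 2646 with delFG2. The full-length and delFG1 arrays lay below both vector arrays, and delFG2 overlapped with them. The differences of -0.28 (block adjusted p 0.0925), -0.24 (0.168) and -0.17 (0.537) did not pass. Without the empty vector array numbered 2 they became -0.46, -0.42 and -0.35 and passed with the block, at adjusted p 0.000556, 0.00103 and 0.00758.

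Myb, the progenitor factor whose loss lets myeloid cells mature, was higher with the full-length fusion and with delFG1. Its intensity was 2268 and 1756 with the empty vector, 2588 and 2393 with the full-length fusion, 2559 and 2387 with delFG1, and 2322 and 2001 with delFG2. The full-length and delFG1 arrays lay above both vector arrays, and delFG2 overlapped with them. Myb rose by 0.32 with the full-length fusion (adjusted p 0.487, and 0.0264 with the block) and by 0.31 with delFG1 (0.503, and 0.0316 with the block).

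The delFG2 difference for Myb was 0.11 (block adjusted p 0.661). With the block the full-length call on Myb was lost without full-length number 1 (0.38, adjusted p 0.124), full-length number 2 (0.26, 0.266), empty vector number 2 (0.21, 0.0685), delFG2 number 1 (0.32, 0.0529) or delFG2 number 2 (0.32, 0.0521), and without an intensity trend (0.32, 0.0798). The delFG1 call was lost without any array other than empty vector number 1, over adjusted p from 0.0597 to 0.325, and without an intensity trend (0.0908).

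**Figure D2:**
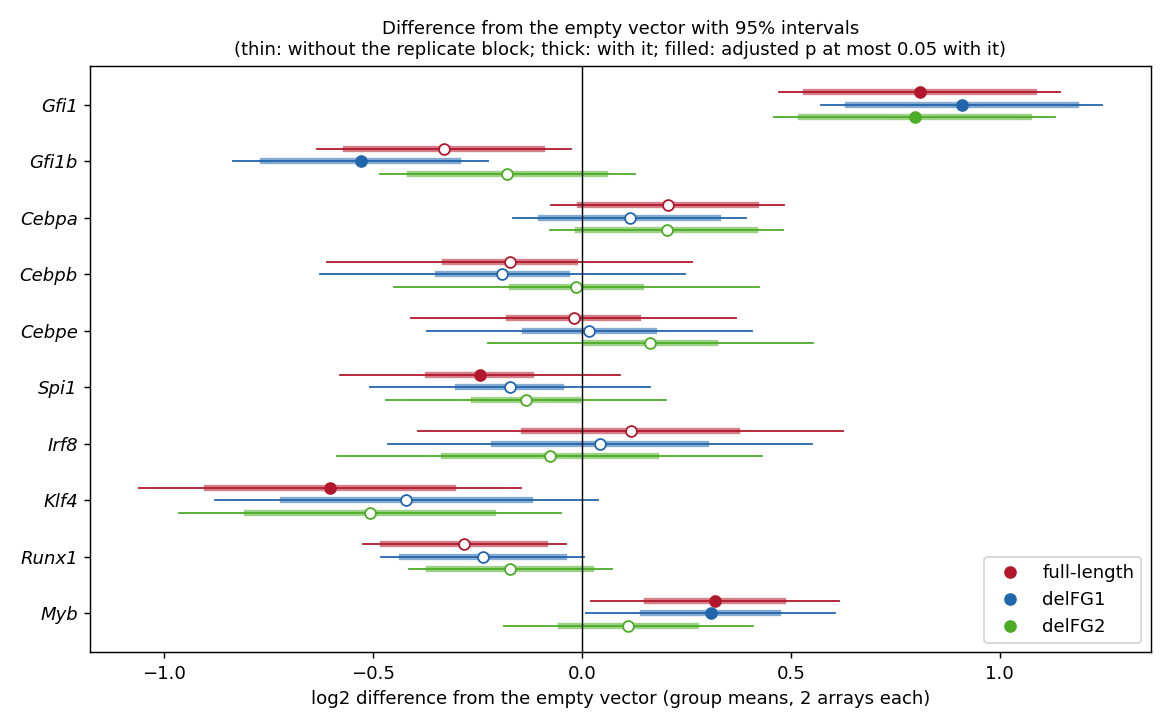
Log2 difference of each factor from the empty vector for the full-length fusion, delFG1 and delFG2, each from 2 arrays a group. Thin bars are 95% intervals without the replicate block, thick bars those with it, and filled points have an adjusted p of at most 0.05 with it. Gfi1 lies at 0.80 to 0.91 in all 3 groups, Klf4 at -0.60 to -0.42.

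In counts, 4 of 10 factors passed between full-length fusion and empty vector with the block (Gfi1 and Myb higher, Klf4 and Spi1 lower), where 6.61% of all probe sets passed, 2.18% higher and 4.43% lower. Without the block 0 of 10 and 0.124% of all probe sets passed by limma, 0.101% higher and 0.0229% lower. An unadjusted p under 0.05 was found there for 5 of the 10 and for 2078 of all 21789 probe sets. The arrays of the groups did not overlap for 7 of the 10, 3 higher and 4 lower, and for 39.1% of all probe sets, 23.4% higher and 15.6% lower. The median difference over the 10 was -0.10, and 0.02 over all probe sets. Because the 10 were chosen with earlier results known, these counts and those below describe them and do not test them as a set.

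With delFG1 against the vector 3 of 10 passed with the block (Gfi1 and Myb higher, Gfi1b lower), where 6.12% of all probe sets passed, 1.94% higher and 4.18% lower. Without it 0 of 10 and 0.129% of all passed by limma (0.0872% higher, 0.0413% lower), and 3 of 10 had an unadjusted p under 0.05, as had 2093 of all 21789 probe sets. The arrays of 6 of 10 did not overlap, 3 higher and 3 lower, against 40.8% of all, 24.6% higher and 16.1% lower. With delFG2 1 of 10 passed with the block, Gfi1, where 0.505% of all did (0.106% higher, 0.399% lower). Without it 0 of 10 and 0.00459% of all passed, and 2 of 10 had an unadjusted p under 0.05, as had 965 of all 21789 probe sets. The arrays of 3 of 10 did not overlap (29.3% of all, 16.3% higher and 13% lower).

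Among the forms of the fusion none of the 10 factors passed in either limma fit. For delFG1 against the full-length fusion the differences ran from -0.20 (Gfi1b) to 0.18 (Klf4), 0 of 10 had an unadjusted p under 0.05 in either fit, and 0.00918% of all probe sets passed without the block and 0.078% with it (0.0229% higher, 0.0551% lower). For delFG2 against the full-length fusion they ran from -0.21 (Myb) to 0.18 (Cebpe). Here 0 of 10 had an unadjusted p under 0.05 without the block and 3 with it, and 0.0275% and 0.468% of all probe sets passed, the latter 0.298% higher and 0.17% lower. For delFG2 against delFG1 they ran from -0.20 (Myb) to 0.35 (Gfi1b), with 1 and 3 of 10 at an unadjusted p under 0.05, and 0% and 0.537% of all passed, the latter 0.404% higher and 0.133% lower. In the order given, 451, 602 and 683 of all 21789 probe sets had an unadjusted p under 0.05 without the block. With it the numbers were 886, 1829 and 1758. Arrays did not overlap for 3, 2 and 2 of the 10 in these comparisons, where 25.7% of all probe sets did not (13.3% higher, 12.4% lower), 25.9% (11.7%, 14.1%) and 27% (11.7%, 15.3%).

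By the span of group means, Cebpb, Cebpe, Spi1 and Irf8 differed more between the array numbers than between the groups, and Myb did not. Cebpb was higher on the array numbered 2 in each of the 4 groups, by 0.33 to 0.40, with a mean of 0.36 (limma adjusted p 0.00138 for the number term). Cebpe was higher there by 0.31 (0.19 to 0.43 by group, adjusted p 0.00305) and Spi1 by 0.27 (0.16 to 0.33, adjusted p 0.0019). Irf8 was lower on the arrays numbered 2 by 0.38 (adjusted p 0.0142) and Myb by 0.20 (0.0323), again in all 4 groups. The size varied by group, from -0.54 with delFG1 to -0.07 with the vector for Irf8. For Myb it ran from -0.37 with the vector to -0.10 with delFG1.

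So 5 of the 10 factors passed for the number, 3 higher and 2 lower, where 11.2% of all probe sets passed, 6.43% higher and 4.75% lower. Klf4 was higher on the array numbered 2 in all groups, by 0.01 with delFG1 and up to 0.61 with delFG2, and did not pass (adjusted p 0.0916). Gfi1 changed sign between groups, from -0.45 with delFG2 to 0.15 with the full-length fusion. The labels do not say what the numbers stand for.

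**Figure D3:**
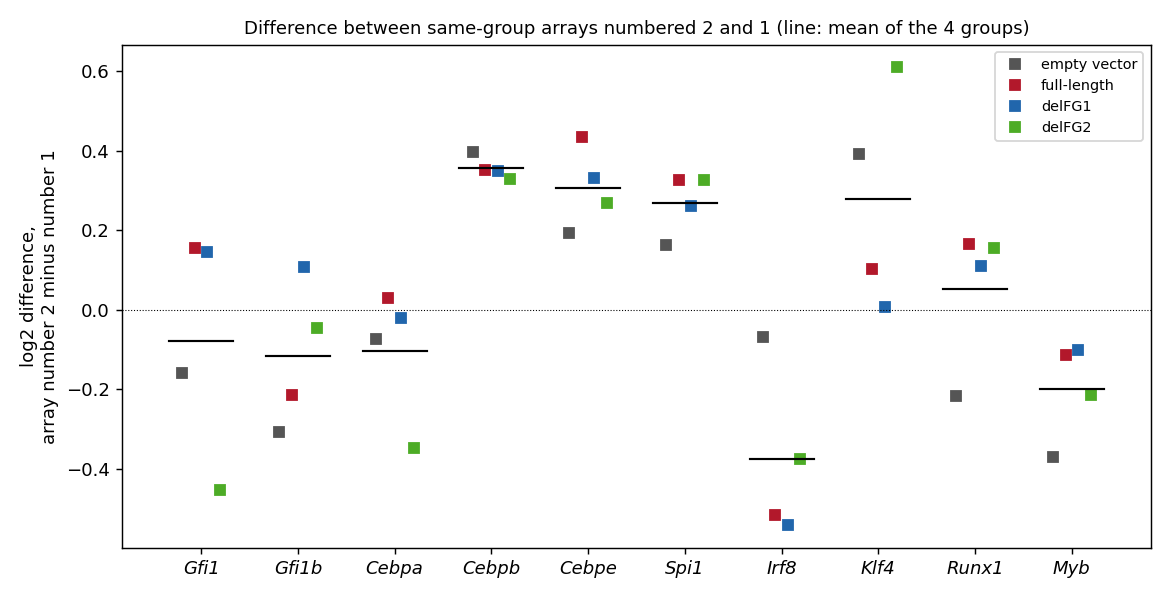
Log2 difference between the array numbered 2 and the array numbered 1 of the same group, as squares for the 4 groups with a line at their mean. Cebpb, Cebpe and Spi1 lie above 0 in all groups and Irf8 and Myb below 0, while Gfi1, Gfi1b, Cebpa and Runx1 lie on both sides.

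The families and targets of the 10 factors were read through lists chosen with earlier results of these data known. Counts over these lists and over the markers below stand beside the shares of all probe sets that passed with the block, each against the vector. For the full-length fusion 2.18% rose and 4.43% fell, for delFG1 1.94% and 4.18%, and for delFG2 0.106% and 0.399%. Of 10 KLF factors, zinc finger proteins of differentiation, 4 fell with the full-length fusion with the block (4.43% of all probe sets), and 0 without it. Klf6 fell by 0.62 (block adjusted p 0.0122), Klf5 by 0.55 (0.0232), Klf13 by 0.42 (0.0356) and Klf4 as above. The median of the list was -0.30 with the full-length fusion, -0.31 with delFG1, where Klf6 alone passed (-0.50), and -0.07 with delFG2, where 0 passed.

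Of 11 ETS factors 3 fell with the full-length fusion with the block, Spic (-0.53, block adjusted p 0.00864), a PU.1 relative of macrophages in the spleen, Ets2 (-0.42, 0.0266) and Spi1, with a list median of -0.02. Spic passed with delFG1 (-0.47) and delFG2 (-0.55) too. Its intensity was 43.8 to 90.4 over the 8 arrays, where the median of an array was 80.7 to 83.2. Of 8 IRF factors measured 0 passed with the full-length fusion or delFG2, and Irf7 (-0.53) passed with delFG1. Of 6 C/EBP family genes 0 passed in any comparison in either fit, and of 7 RUNX and MYB factors Myb alone did.

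Among 29 other blood transcription factors 1 rose and 4 fell with the full-length fusion with the block, against 2.18% and 4.43% of all probe sets, and 1 of 29 is near the former share. Zeb2, a zinc finger factor of monocyte and dendritic cell development, fell by 0.69 (block adjusted p 0.00184), Id2, an inhibitor of helix-loop-helix factors, by 0.45 (0.00226), and Rara, the retinoic acid receptor of granulocyte maturation, by 0.40 (0.0113). Lmo2, a stem cell adaptor protein, rose by 0.29 (0.0249). With delFG1 1 rose and 6 fell, and with delFG2 0 passed. Of 16 partners and cofactors, such as the demethylase gene Kdm1a that works with GFI1 (0.17) and Cbfb, the partner of RUNX1 (-0.25), 0 passed in any comparison in either fit.

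Known target genes of the factors passed in different proportions. Of 11 measured targets of C/EBP epsilon, mostly granule and migration genes of neutrophils, 9 fell and 0 rose with the full-length fusion with the block (4.43% and 2.18% of all probe sets), and 0 passed without it. The chemokine receptor gene Cxcr2 fell by 1.09 (block adjusted p 0.000481), the collagenase gene Mmp8 by 0.87 (0.00301), the cathelicidin gene Camp by 0.58 (0.0032) and the integrin gene Itgb2 by 0.37 (0.00149). The list median was -0.41, while Cebpe itself differed by -0.02. With delFG1 8 fell (4.18% of all), with a median of -0.38, and with delFG2 0 passed (0.399% of all fell), with a median of -0.13.

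Cxcr2 shows the pattern by array. Its intensity was 753 and 1216 with the empty vector, 350.2 and 574 with the full-length fusion, 282 and 606 with delFG1, and 691 and 976 with delFG2. The delFG2 arrays exceeded the full-length ones in Cxcr2 by 0.87 (block adjusted p 0.0109), Camp by 0.76 (0.0049) and the gelatinase gene Mmp9 by 1.03 (0.00776). These 3 of the 11 passed there with the block, where 0.298% of all probe sets passed as higher. For delFG1 against the full-length fusion 0 of 11 passed in either fit, where 0.078% of all passed with the block.

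Of 17 measured PU.1 targets 9 fell and 0 rose with the full-length fusion with the block (4.43% and 2.18% of all), with a median of -0.28. The cathepsin gene Ctss fell by 0.82 (block adjusted p 0.000249), the integrin gene Itgam by 0.45 (0.000746), the interleukin 7 receptor gene Il7r by 1.01 (0.000858) and the lysozyme gene Lyz2 by 0.28 (0.00245). With delFG1 9 fell, with a median of -0.25, and with delFG2 Fcgr1 (-0.57) alone did. Several of these genes are also listed for C/EBP epsilon or for monocytes, so the lists are not independent.

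Of 16 targets of C/EBP alpha and beta, 2 rose and 4 fell with the full-length fusion with the block. The cytokine gene Il6 fell by 1.32 (block adjusted p 0.000121), the interleukin 6 receptor gene Il6ra by 0.66 (0.0102) and Lyz2 by 0.28, and Gfi1, itself on this list, rose. The list median was -0.05. Against the full-length fusion, delFG2 had more Il6 signal, by 0.96 (block adjusted p 0.00508).

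Of 15 targets of IRF8 and KLF4, 3 fell (Ctss, Cybb and the survival gene Bcl2l1), with a median of 0.01. Of 13 MYB targets, 4 rose and 0 fell with the full-length fusion, the progenitor marker Cd34 by 0.86 (block adjusted p 0.000189), Gfi1, Myc by 0.36 (0.0209) and Lmo2, with a median of 0.20. With delFG1 4 rose, among them Cd34 (0.61) and Bcl2 (0.36), and with delFG2 Gfi1 alone did. Of 13 RUNX1 targets 2 rose and 3 fell, with a median of 0.06. Gfi1 and Spi1, themselves among the factors described above, are part of these counts.

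Genes that GFI1 is known to repress were followed because Gfi1 itself was higher. Of 14 measured, 2 rose and 3 fell with the full-length fusion with the block. Hoxa9 (1.97) and Meis1 (0.80), which GFI1 represses in normal progenitors, rose, and Hoxa9 also passed without the block (adjusted p 0.00976). Whether the Hoxa9 probe set reads the introduced fusion too is not known. Id2 (-0.45), Csf1r (-0.51), the receptor of macrophage growth factor, and Egr2 (-0.47), a monocyte factor, fell. With delFG1 2 rose against the vector, among them Hoxa9 (0.72), and Meis1 did not pass. There 4 fell, including Id2 (-0.65), Egr2 (-0.63) and Gfi1b (-0.53), which is itself one of the factors described above. With delFG2 0 of 14 passed, with a median of -0.05, where 0.505% of all probe sets passed. Whether the level of Gfi1 played a part in any of these differences was not tested. Against the full-length fusion Hoxa9 (-1.25) and Meis1 (-0.82) fell with delFG1, and both fell with delFG2 (-1.60 and -0.72), in the fit with the block.

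**Figure D4:**
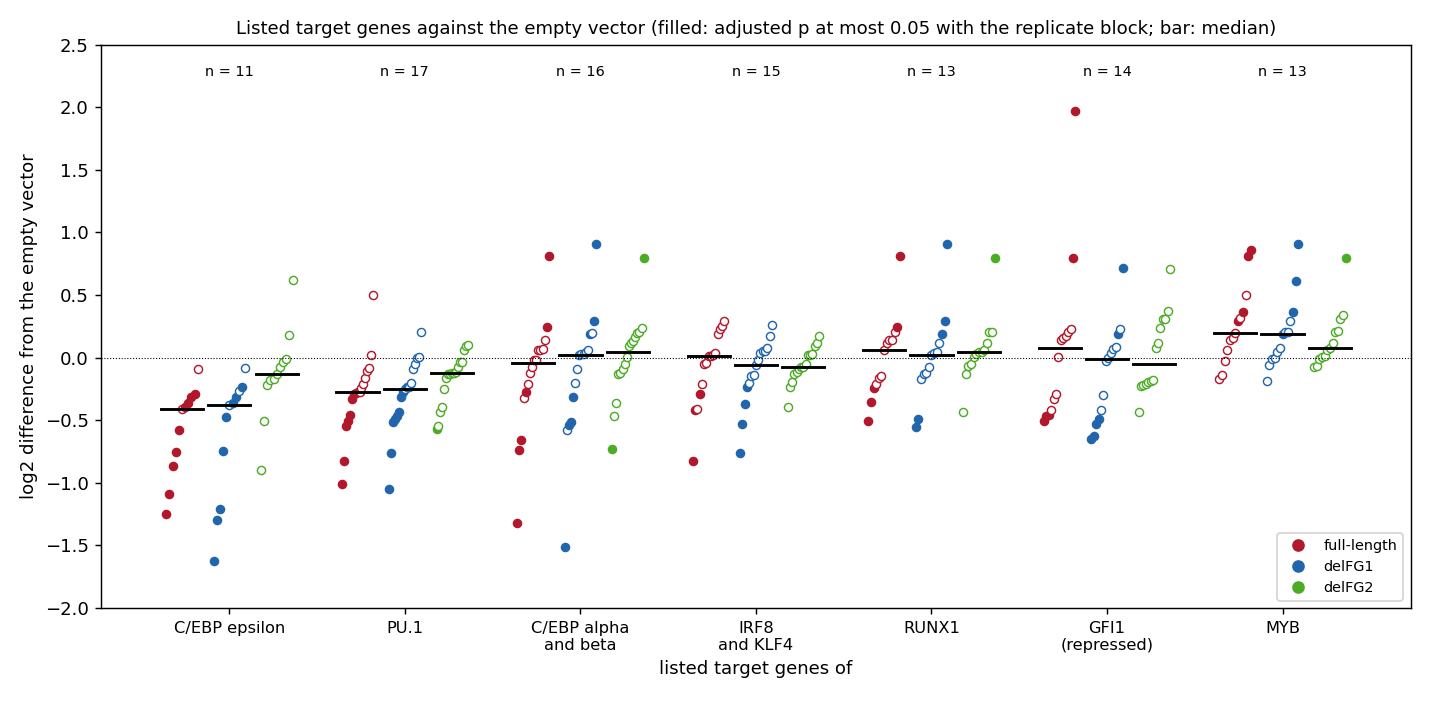
Log2 difference from the empty vector of the listed target genes of 7 factors or pairs of factors, for the full-length fusion, delFG1 and delFG2. Points are genes, filled where the adjusted p with the replicate block is at most 0.05, and black bars are list medians, which for C/EBP epsilon targets are -0.41, -0.38 and -0.13. Some genes stand in several lists.

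Markers of several mature cell types differed between the full-length fusion or delFG1 and the vector. With delFG2 Fcgr1 was the only marker of the 10 lists that passed against the vector, where 0.505% of all probe sets passed. The neutrophil, monocyte, mast cell and eosinophil means were higher on the array numbered 2 in every group, and the megakaryocyte mean was lower there. The mean log2 level of 11 neutrophil markers was 11.15 and 11.71 with the empty vector, 10.76 and 11.21 with the full-length fusion, 10.70 and 11.35 with delFG1, and 11.42 and 11.69 with delFG2. With the block 6 of the 11 fell with the full-length fusion (4.43% of all probe sets) and 5 with delFG1 (4.18%). With delFG2 0 of 11 passed, where 0.399% of all fell. Of 10 mast cell and basophil markers 5 fell and 1 rose with the full-length fusion (mean level 9.12 and 9.37, against 9.53 and 9.68 with the vector), and of 6 eosinophil markers 3 fell.

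Of 9 monocyte and macrophage markers 4 fell and 2 rose with the full-length fusion, with mean levels of 9.23 and 9.30 against 9.20 and 9.55. Of 5 megakaryocyte markers 4 fell and 1 rose, and of 5 erythroid markers 1 fell. The mean of 5 megakaryocyte markers was 8.24 and 8.11 with the full-length fusion, 8.03 and 8.01 with delFG1, 8.71 and 8.51 with delFG2, and 8.77 and 8.73 with the vector. Of 8 dendritic cell markers and of 6 stroma markers 1 each rose with the full-length fusion, and of 6 B cell markers 0 passed there. Of 6 T and NK cell markers 0 passed in any comparison with the vector, and their mean stayed between 5.23 and 5.29 on all arrays. The lowest intensity on any array was 18.3, and there were no detection calls, so dim markers cannot be told apart from background. In bulk RNA fewer cells of a type and less RNA per cell cannot be told apart, and the part of these markers in the factors' differences was not tested.

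Patterns like those of the 3 factors whose group means spanned at least 0.5 were ranked by Pearson's r over the 8 arrays, among 920 probe sets with a span as large. Closest to Gfi1 were Smim6 (r = 0.99), the adhesion receptor gene Adgrg6 (0.98) and Gtsf1l (0.97). Closest to Gfi1b were the laminin gene Lama5 (0.96), the cystatin-like gene Cstdc6 (0.95) and the noncoding RNA Malat1 (0.94). Closest to Klf4 were the chemerin receptor gene Cmklr1 (0.98), the cytokine gene Il1b (0.97) and Csf1r (0.96). The 8 arrays share 4 groups and 2 numbers, so these values describe likeness only.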

How the data were processed

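Intensity values on a linear scale were deposited by the authors as 1 table of 28853 probe sets for 8 arrays. RNA was purified on RNeasy columns and biotin-labelled with a whole-transcript kit, per the labels' protocols. Background correction, summarisation and normalisation are not stated in the labels. The table holds no detection calls, so dim probe sets stayed in. Precision is limited by 2 arrays a group.

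Symbols came from GEO's platform annotation. In it 21789 probe sets carried 1 symbol and were tested, 1621 carried several and 5443 none. Entrez numbers of 21698 tested probe sets matched RefSeq GRCm38.p6. A gene with several probe sets was read by the one with the highest mean.

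Values were analysed as log2(intensity + 1) with limma 3.58.1 in R 4.3.3 (lmFit and eBayes with an intensity trend, 4 group means, all 8 arrays, 4 residual and 4.62 prior degrees of freedom). For each of the 6 comparisons, all two-sided, p-values were adjusted by Benjamini-Hochberg over the 21789 probe sets, with a threshold of 0.05. The alternative fit, with the array number as a block, had 3 residual and 7.78 prior degrees of freedom. In all 6 pairs of groups, same-numbered arrays deviated together (r of deviations from group means 0.401 to 0.640), so the numbers were taken to pair the arrays. The labels give the numbers and not their meaning. The number term was tested in the same fit. Both fits were also run on simulated data with independent noise and a number effect shared by all groups. Those data follow the model with the block by design, so they cannot show whether it suits the real arrays.

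The alternatives were other offsets, scalings, filters, variance priors and sets of arrays. All 10 members are named. From each gene list up to 4 genes with the smallest p among those that passed are named, and further genes named for context (Cbfb, Kdm1a and, among genes repressed by GFI1, Egr2) were picked with their values in view. For members whose group means span at least 0.5, the 3 most similar genes are named. Members and lists were chosen with earlier results of these data known.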

Additional observations from a re-analysis of the deposited data

How the results depend on the processing

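The number of the 10 factors that passed was 0 in all 6 comparisons without the replicate block, under offsets of 16 and 0, median centring, quantile normalisation, no intensity trend, the dimmest 25% left out, all probe sets, and only the compared groups. Leaving out 1 array without the block gave 0 to 1, the 1 being Gfi1 with delFG1 against the vector without either delFG2 array. With the replicate block the counts were 4 for full-length fusion against vector, 3 for delFG1 against vector, 1 for delFG2 against vector, and 0 in the other 3. Fits joining the block with a further choice were added after seeing the data. Full-length fusion against vector then gave 4 after median centring, 3 after quantile normalisation, 4 without the dimmest 25% and 1 without an intensity trend, delFG1 gave 3, 3, 3 and 2, and delFG2 gave 1, 1, 1 and 0. With the block, leaving out 1 array gave 0 to 4, 1 to 4 and 0 to 3 in these comparisons. Groups left with 1 array were assumed to vary like the others. The differences called with all 8 arrays kept their sign under all 29 alternatives. Runx1 and Spi1 with delFG2 against the vector, which passed without empty vector number 2, kept it in 28 of 29, with highest values of 0.01 and 0.03. The cause of the changes was not tested.

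Over all probe sets the counts that passed went from 27 without to 1440 with the block for full-length fusion against vector, from 28 to 1333 for delFG1 and from 1 to 110 for delFG2. Against the full-length fusion they went from 2 to 17 for delFG1 and from 6 to 102 for delFG2, and from 0 to 117 between the mutants. With the block, full-length against vector ranged from 385 without full-length number 2 to 2378 without empty vector number 2. The cause of these changes was not tested either.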
